A study of Mus musculus with 4 samples.

Results

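The genes described here are 7 chemokine receptor genes of myeloid cells, Ccr1, Ccr2, Ccr3, Ccrl2, Cx3cr1, Cxcr4 and Ackr3, chosen by symbol from 55536 annotated genes. Their RNA was measured in 4 libraries of 1 group, labelled as biological replicates: primary macrophages grown from bone marrow of C57BL/6J mice, treated with lipid A at 100 ng/ml for 15 min, cytosolic fraction, ribosome-depleted total RNA from 1 µg. Lipid A is the part of bacterial lipopolysaccharide that Toll-like receptor 4 recognises. All libraries carry the same donor record, and the labels give neither sex nor age. Nothing in them ties a replicate to an animal or culture of its own, and the p-values below therefore describe spread between libraries that could be technical. No unstimulated library was analysed here, and the values are levels in stimulated cells, not responses.

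Chemokine receptors are G protein-coupled receptors that steer leukocytes along gradients of small secreted proteins, the chemokines. Ccr1, Ccr2, Ccr3, Cx3cr1 and Cxcr4 signal through Gi proteins, whereas Ccrl2 and Ackr3 are atypical receptors that bind ligands without classical G protein signalling. Ccr2 and Cx3cr1 are widely used to tell classes of monocytes and macrophages apart, and Ccr3 is best known from eosinophils.

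Of the 7 genes, 5 lie on chromosome 9 and 2 on chromosome 1 (mm10, GENCODE M21). On chromosome 9, Ccr1 spans 123962124 to 123968692 on the minus strand, Ccr3 spans 124021972 to 124031689 and Ccr2 spans 124101950 to 124113557, both on the plus strand. Ccr3 starts 53.3 kb and Ccr2 133.3 kb from the Ccr1 start. Ccrl2 (111054486 to 111057519, minus strand) and Cx3cr1 (119901616 to 120069879, minus strand) lie elsewhere on chromosome 9. On chromosome 1, Cxcr4 spans 128588199 to 128592293 on the minus strand and Ackr3 spans 90203980 to 90216751 on the plus strand. The exons of Cx3cr1 share 78 bases with Gm33858 on the opposite strand, where reads cannot be told apart unless counting used strand. No other member shares exonic bases with another gene.

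The 250 bases before the RefSeq start site (GRCm38.p6, the assembly of mm10) are shown for 4 members, namely Ccr1 and Ccr3, neighbours with their highest level in replicate 1, and Cxcr4 and Ccrl2, with their lowest level in that library. Each is printed 5′ to 3′ on the gene's own strand, and the capitals mark matches to the motifs searched.
Ccr1: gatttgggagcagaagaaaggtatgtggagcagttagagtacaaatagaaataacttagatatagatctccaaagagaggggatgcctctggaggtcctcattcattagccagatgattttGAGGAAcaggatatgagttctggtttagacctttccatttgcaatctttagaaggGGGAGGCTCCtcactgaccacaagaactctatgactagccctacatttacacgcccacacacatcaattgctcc
Ccr3: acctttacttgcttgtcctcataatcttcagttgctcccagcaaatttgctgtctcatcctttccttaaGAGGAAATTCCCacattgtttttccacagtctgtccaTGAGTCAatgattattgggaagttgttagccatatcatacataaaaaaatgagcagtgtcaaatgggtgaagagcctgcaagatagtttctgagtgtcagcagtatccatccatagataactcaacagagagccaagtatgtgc
Cxcr4: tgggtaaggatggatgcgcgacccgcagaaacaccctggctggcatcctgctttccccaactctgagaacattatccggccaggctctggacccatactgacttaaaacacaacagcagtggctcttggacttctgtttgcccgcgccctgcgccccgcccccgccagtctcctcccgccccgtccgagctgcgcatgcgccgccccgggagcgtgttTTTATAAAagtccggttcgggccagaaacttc
Ccrl2: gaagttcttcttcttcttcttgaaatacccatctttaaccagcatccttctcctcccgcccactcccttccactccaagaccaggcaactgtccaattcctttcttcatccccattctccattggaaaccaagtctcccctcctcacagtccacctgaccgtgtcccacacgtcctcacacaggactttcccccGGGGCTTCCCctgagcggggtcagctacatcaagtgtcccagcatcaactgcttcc

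Both strands were searched. The motifs were AP-1 (TGANTCA), the PU.1 core (GAGGAA), NF-kB (by its degenerate motif), part of the cAMP response element (TGACGTC) and the TATA box (TATAAA). They occur in 6.7%, 23.4%, 7.3%, 2.8% and 12.3% of 32536 RefSeq promoter windows of the same length. The Ccr1 window held the PU.1 core at -129 and the NF-kB motif at -74, counted from the start site. In the Ccr3 window, AP-1 lay at -144 and the PU.1 core at -181, where it overlaps an NF-kB match at -179. The Ccrl2 window at the first of its RefSeq start sites held an NF-kB match at -56, which reads as a match on both strands. Cxcr4 matched the TATA box letters at -30, with an overlapping match on the other strand at -32, and Ackr3 matched them at -8. The windows of Ccr2 and Cx3cr1 held none of these letters. The Ccr2 window lies mostly, and the Cx3cr1 window wholly, inside the GENCODE span of its gene. They therefore do not cover the bases before the GENCODE starts. The windows also differed in base composition, where the medians over all windows were 52.4% G and C and 6 CpG. Cxcr4 had 61.2% G and C with 19 CpG, Ccr1 43.6% with 1 and Ccr3 40.4% with 0. Ccr2 had 37.2% with 1, Cx3cr1 53.6% with 4, the first Ccrl2 window 54.0% with 5 and Ackr3 54.0% with 7. A match is a description of letters and not of binding.

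Depth was 30088678, 47961117, 40282297 and 45771235 expected counts on annotated genes in replicates 1 to 4, and 3 counts, the limit that a count of 0 allows, came to between 0.0626 and 0.0997 CPM (counts scaled by the library total) from counting error alone. TPM, the length-corrected abundance used here to set genes side by side, was dominated by 7SL RNA, which held 57.1% to 63.3% of it. All 12 macrophage markers reached a mean of 1 TPM, with a summed level of 5540 to 8960 TPM. None of the 10 eosinophil and basophil, 10 T and natural killer, 6 B cell or 7 stromal markers did. Of the neutrophil, dendritic cell and monocyte markers, 3 of 10, 1 of 8 and 3 of 7 did, with summed levels of 20.9 to 40.9, 2.16 to 3.79 and 11.3 to 25.1 TPM.

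Cxcr4, the receptor for Cxcl12 that retains cells in bone marrow, had the highest mean level of the 7 genes, at 34.4 ± 18.5 TPM (SD, n = 4), rank 1337 among all genes. It stood at 15.1 TPM in replicate 1, 33.9 in replicate 2, 29.1 in replicate 3 and 59.4 in replicate 4. Replicate 1 was the lowest and replicate 4 the highest library, 3.94 times apart.

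Ccr1, a receptor for inflammatory chemokines such as Ccl3 and Ccl5, averaged 16.8 ± 13.8 TPM. Its level was 37.3 TPM in replicate 1 and 8.28, 9.39 and 12.1 TPM in replicates 2, 3 and 4. The mean thus rests on replicate 1, and without it Ccr1 averaged 9.93 TPM.

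Ccrl2, an atypical receptor that binds chemerin and presents it to other cells, averaged 10.9 ± 8.95 TPM. It was at 4.21 TPM in replicate 1, at 7.81 and 7.64 TPM in replicates 2 and 3, and at 24.1 TPM in replicate 4. As for Cxcr4, replicate 1 was lowest and replicate 4 highest. Without replicate 4, Ccrl2 averaged 6.55 TPM.

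Ccr2, the receptor for Ccl2 through which monocytes leave the marrow, was the steadiest member on the TPM scale, at 3.06, 3.18, 2.99 and 2.80 TPM in replicates 1 to 4 (3.01 ± 0.159, SD, n = 4). On the CPM scale it ranged from 13.5 in replicate 4 to 20.1 in replicate 2.

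Ccr3, the eotaxin receptor, was at 4.70 TPM in replicate 1 and at 0.87, 1.07 and 0.89 TPM in replicates 2, 3 and 4, on 686, 249, 250 and 180 expected counts. Cx3cr1, the fractalkine receptor, was at 0.85 TPM in replicate 1 and at 0.13, 0.10 and 0.15 TPM in the others, on 143, 42, 28 and 37 expected counts. Both genes had their highest level in replicate 1, 5.4 and 8.5 times the lowest library. Without replicate 1, Ccr3 averaged 0.943 and Cx3cr1 0.127 TPM, which is below 1 TPM for both. The summed level of the 10 eosinophil and basophil markers, cells for which Ccr3 is best known, was 0.16, 0.24, 0.47 and 0.28 TPM in replicates 1 to 4. Siglecf made up most of that sum in replicate 1, at 0.15 TPM there and 0.08, 0.05 and 0.12 TPM in the others, and was the 1 marker of the list with enough counts to be tested, at a log2 fold of 0.62 in replicate 1 that was not called. Prg3 and Il5ra had 0 counts in all 4 libraries. The part of these cells in the Ccr3 level was not tested. In bulk RNA, fewer cells of a type and less RNA per cell cannot be told apart.

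Ackr3, a scavenging receptor for Cxcl12 and Cxcl11, was listed at 0 TPM in all 4 libraries, with 0, 0, 1 and 0 counts. Its RNA was not detectable at this depth.

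**Figure D1:**
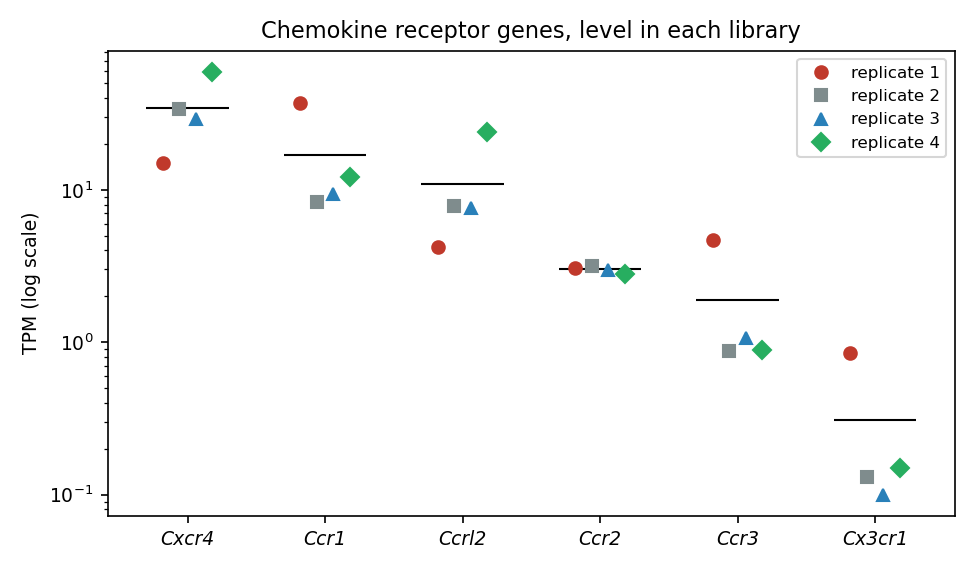
TPM of 6 chemokine receptor genes on a log axis, 1 point per library, with a line at the mean of the 4 libraries. Ackr3, listed at 0 in all libraries, is not drawn. Replicate 1 is highest for Ccr1, Ccr3 and Cx3cr1 and lowest for Cxcr4 and Ccrl2, and the Ccr2 points lie between 2.80 and 3.18 TPM.

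The order of mean levels was Cxcr4, Ccr1, Ccrl2, Ccr2, Ccr3, Cx3cr1 and Ackr3. Neighbours in that order were compared within libraries by an exact two-sided sign-flip permutation test of log2(TPM + 0.1), for which 4 libraries allow no p below 0.125. Ccr3 exceeded Cx3cr1 in 4 of 4 libraries by 2.24 ± 0.26 (SD, n = 4), Ccrl2 exceeded Ccr2 in 4 of 4 by 1.53 ± 1.10, and Cx3cr1 exceeded Ackr3 in 4 of 4 by 1.69 ± 1.05, each at that smallest exact p of 0.125 and an adjusted p of 0.25 over the 6 pairs. The differences of Cxcr4 and Ccr1 (1.15 ± 1.66), of Ccr1 and Ccrl2 (0.63 ± 1.75) and of Ccr2 and Ccr3 (1.03 ± 1.10) were positive in 3 of 4 libraries, with exact p-values of 0.25, 0.625 and 0.25 and adjusted values of 0.3, 0.625 and 0.3. The sizes for the low genes depend on the pseudocount, since Ackr3 is listed at 0: with 1 TPM in place of 0.1, the difference was 0.35 for Cx3cr1 and Ackr3 and 0.99 for Ccr3 and Cx3cr1, with the same exact p. No neighbouring pair thus passed 0.05, which the number of libraries does not allow. Without replicate 1 the difference of Ccr1 and Ccrl2 was -0.20, so their order rests on that library.

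The makeup of the receptor RNA differed between libraries. In replicate 1 Ccr1 held 57.2% of the summed TPM of the 7 genes and Cxcr4 23.1%. In replicates 2, 3 and 4 Cxcr4 held 62.6%, 57.8% and 59.7% and Ccr1 15.3%, 18.7% and 12.2%. The summed level itself was 65.2, 54.1, 50.2 and 99.5 TPM.

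**Figure D2:**
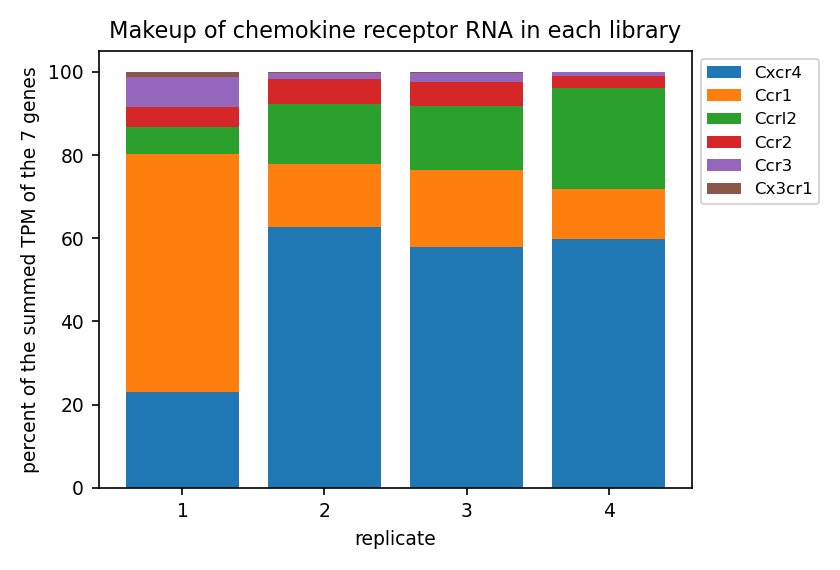
Share of each gene in the summed TPM of the 7 chemokine receptor genes, 1 stacked bar per library. Ccr1 takes 57.2% of the bar of replicate 1, and Cxcr4 takes 57.8% to 62.6% of the other bars.

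To ask which members differed between the libraries, edgeR's quasi-likelihood test set each replicate against the other 3, over all 14041 genes whose mean count reached 10, of which 6 are members. Ackr3 was below that count. In replicate 1, 22.0% of all genes tested were called at an adjusted p under 0.05, 14.5% as higher and 7.58% as lower. Of the 6 members tested, 3 were called higher and 1 lower there, and their median log2 fold was 0.70 against 0.00 for all genes tested.

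The receptors higher in replicate 1 were Ccr1, with a log2 fold of 1.67 ± 0.10 (SE) and an edgeR adjusted p of 0.00279, Ccr3, at 2.03 ± 0.29 and 0.011, and Cx3cr1, at 2.46 ± 0.34 and 0.0101. In each case replicate 1 lay above every other library. Cxcr4 was lower, with a log2 fold of -1.65 ± 0.18 and an edgeR adjusted p of 0.00663, and replicate 1 lay below every other library. These 4 calls held under all alternatives run. Ccrl2 lay at -2.12 ± 0.56 and did not pass, at an edgeR adjusted p of 0.0522. It passed under every alternative except the one without replicate 3. Ccr2 lay at -0.27 ± 0.31, with an edgeR adjusted p of 0.559, and at -0.55 with an adjusted p of 0.0342 when replicate 4 was left out.

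In replicates 2, 3 and 4 no member was called. Neither was any other gene by edgeR, although 277, 135 and 104 genes had an unadjusted p under 0.05 and DESeq2 called 8, 3 and 17. No member was among any of these. The largest member fold there was that of Ccr3 in replicate 4, at -1.57 ± 0.98 (SE). Ccrl2 lay at 1.44 ± 0.65 and Cxcr4 at 0.66 ± 0.63 in the same library. The other 3 libraries include replicate 1 in each of these comparisons. Without replicate 1, the replicate 4 folds were 1.08 for Ccrl2, -0.68 for Ccr3 and 0.31 for Cxcr4, with edgeR adjusted p-values of 0.406, 0.97 and 0.97.

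**Figure D3:**
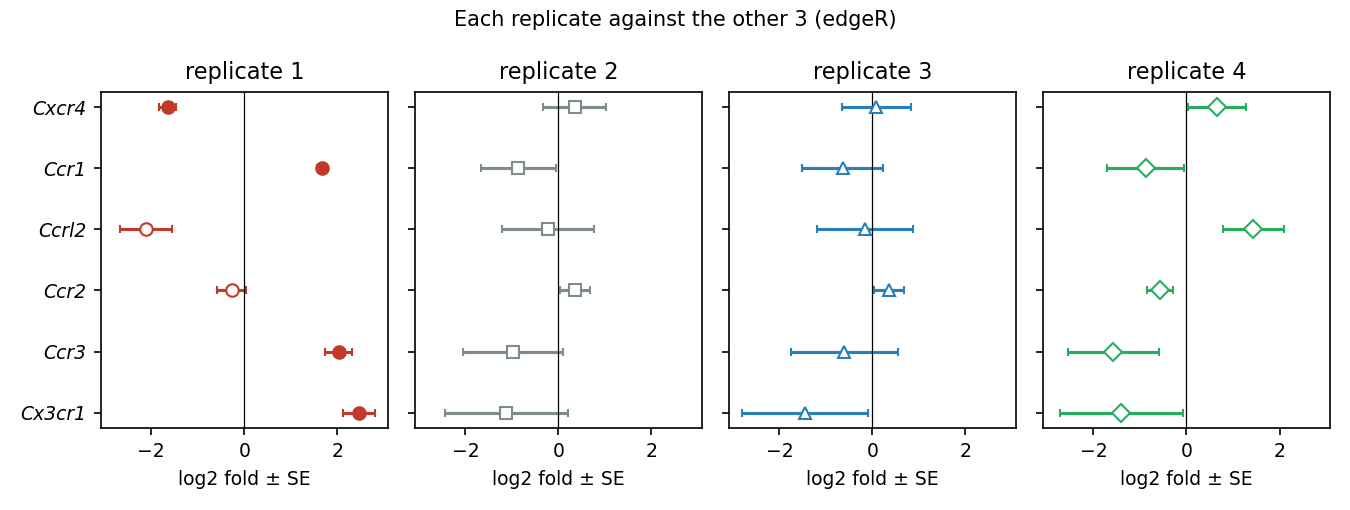
Log2 fold of each replicate against the other 3 with its standard error, from edgeR, for the 6 members tested. Filled points were called at an adjusted p under 0.05, which occurs only in the panel of replicate 1, for Ccr1, Ccr3 and Cx3cr1 (higher) and Cxcr4 (lower).

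All 6 members tested varied over the libraries by more than counting error in a Poisson deviance test, as did 82.8% of all genes tested. The adjusted p was 2.53e-27 for Ccr2, 1.20e-36 for Cx3cr1 and 4.81e-146 for Ccr3 (edgeR's TMM library sizes as offset), and was 0 at machine precision for Ccr1, Ccrl2 and Cxcr4. The SD of log2 CPM was 0.35 for Ccr2 and between 0.83 and 1.21 for the other members, against a median of 0.25 over all genes tested. For Cx3cr1, 93.7% of genes tested had a smaller SD, for Ccrl2 92.5%, for Ccr3 91.8%, for Ccr1 87.3% and for Cxcr4 87.1%, while for Ccr2 it was 62.6%.

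On the map of chromosome 9, Ccr1 and Ccr3 were both higher in replicate 1, while their neighbour Ccr2 was not called. Ccr1l1, which starts 9.7 kb from the Ccr1 start, was at 0.14 to 0.27 TPM. That rests on 12, 19, 16 and 9 expected counts in replicates 1 to 4. Its log2 fold in replicate 1 was 0.14 ± 0.82 (SE), an error too wide to call the gene steady. Whether folds of neighbouring genes differ from each other was not tested.

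Sequence likeness limits how reads are assigned within the cluster. Ccr1 is 76.0% identical to Ccr1l1, with a longest shared run of 31 bases, and 68.1% identical to Ccr3, with a run of 47 bases. No pair of members shares a run of 50 bases.

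**Figure D4:**
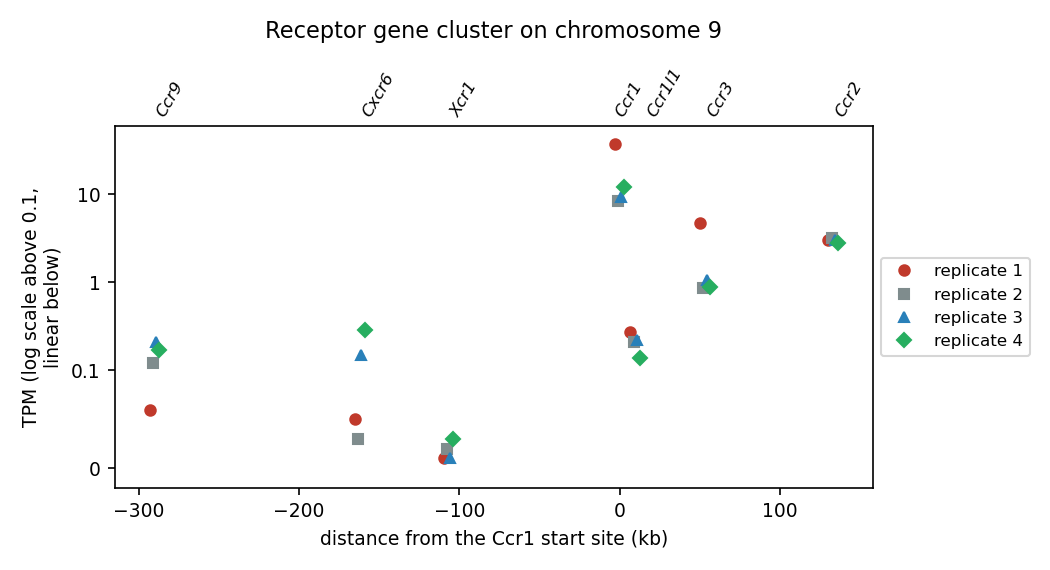
TPM of 7 receptor genes within 300 kb of the Ccr1 start, against distance from that start, 1 point per library. The axis is logarithmic above 0.1 TPM and linear below. Replicate 1 stands above the other libraries for Ccr1 and Ccr3, and the points of Ccr2 lie together.

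Transcript shares were given by the deposited tables for the members with more than 1 transcript. Cxcr4-201, the form with a complete coding sequence of 1077 bases, held 83.9%, 85.3%, 87.4% and 80.8% of Cxcr4 in replicates 1 to 4 (84.3 ± 2.75%, SD, n = 4). The rest was Cxcr4-202, at 15.7 ± 2.75%, an annotation of 902 bases whose coding part ends without a stop. Near the start of the coding sequence, on the minus strand of chromosome 1 between 128589863 and 128592209, the forms differ by 6 bases that are kept only in Cxcr4-201 and are shown in capitals.
Cxcr4-201: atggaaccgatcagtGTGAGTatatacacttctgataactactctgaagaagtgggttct
Cxcr4-202: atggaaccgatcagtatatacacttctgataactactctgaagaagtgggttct
The forms also differ in length at the other end, so the share cannot be read as use of these 6 bases alone.

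Ccr2 was led by Ccr2-202, an annotation with 1 exon, at 73.7%, 66.2%, 81.2% and 62.4% (70.8 ± 8.33%, SD, n = 4). Ccr2-203 and Ccr2-204 averaged 9.24 ± 2.36% and 9.9 ± 1.4%. Ccr2-201 averaged 10 ± 7.28%, at 9.39%, 16.2%, 0.01% and 14.4% in replicates 1 to 4, with 0 expected counts in replicate 3. In the target tables Ccr2-201 averaged 21.7%. All 4 annotations carry a coding sequence of the same 1119 bases, so the shares divide the gene by what lies outside it.

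Ccrl2 was led by Ccrl2-203, at 53.4%, 63.2%, 55.2% and 60.4% (58.1 ± 4.54%, SD, n = 4). Ccrl2-201 averaged 22.8 ± 7.78%, and both have a coding sequence of 1080 bases. Ccrl2-202, an annotation of 569 bases with no stop, was at 33.8% in replicate 1 and 14.9%, 13.4% and 14.3% in the others, but the share of replicate 1 stands on 23 expected counts. In the target tables Ccrl2-202 led in replicate 1, with 47.5% against 39.9% for Ccrl2-203.

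Cx3cr1 was given wholly to Cx3cr1-201 in replicates 1 and 2 and at 88.3% and 69.4% in replicates 3 and 4. Cx3cr1-203 took the rest, on 4 expected counts in replicate 3 and 13 in replicate 4. Ccr1 and Ccr3 have a single annotated transcript each.

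**Figure D5:**
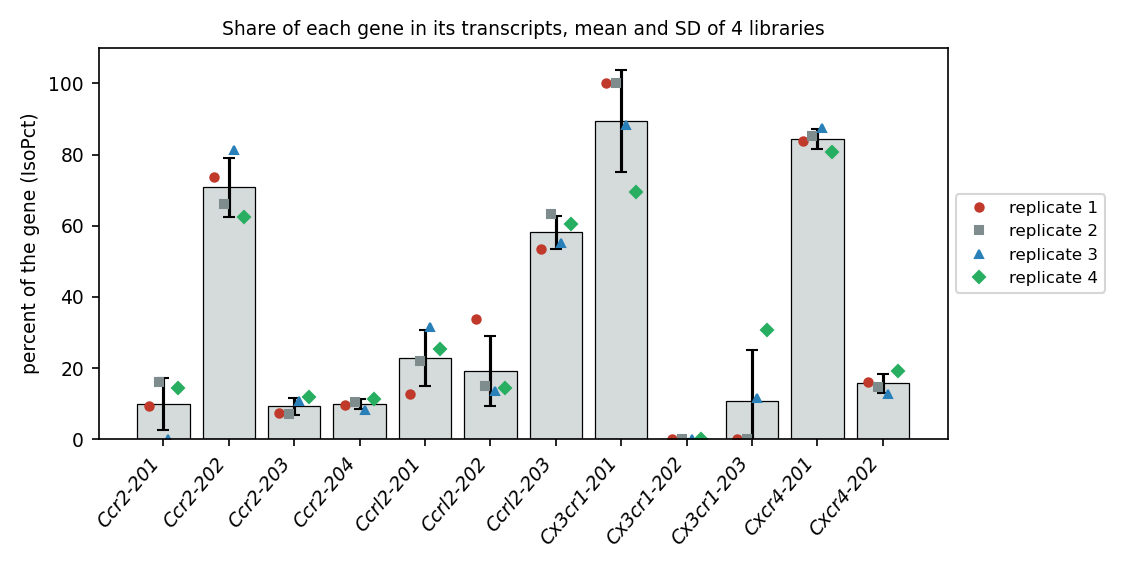
Percent of each gene in its annotated transcripts, with bars at the mean, error bars of 1 SD and 1 point per library. Cxcr4-201, Ccr2-202 and Ccrl2-203 lead their genes in all 4 libraries of these tables, and Ccrl2-202 is highest in replicate 1, at 33.8%.

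Other chemokine receptors were mostly low. Of 18 further receptor genes, 3 reached a mean of 1 TPM. Among these were Cmklr1, the signalling receptor for chemerin, at 14.7 ± 4.67 TPM, and Cxcr3, a receptor best known from T cells, at 2.44 ± 0.753 TPM (SD, n = 4). Ccr8 and Ackr2 had 0 counts in all libraries. Ccr10 and Ccr7 had mean counts of only 10.5 and 56, and log2 folds of -0.85 ± 0.89 and -0.81 ± 0.62 (SE) in replicate 1. The median fold of the receptors tested there lies between these 2 uncertain values. Cxcr3, on a mean count of 254, lay at 0.07 ± 0.26. Of 8 tested in replicate 1, 0 were higher and 1 was lower by edgeR, beside 14.5% and 7.58% of all genes tested, with a median log2 fold of -0.83 against 0.00 for all genes. The lower one was Cmklr1, which stood at 8.95 TPM in replicate 1 and at 13.6, 16.4 and 20.0 TPM in the others, a log2 fold of -1.14 ± 0.15 with an edgeR adjusted p of 0.00939. Cmklr1 binds the ligand that Ccrl2 presents. On the TPM scale both genes had their lowest level in replicate 1 and their highest in replicate 4. On the CPM scale Cmklr1 was highest in replicate 3, at 82 against 76.3 in replicate 4, while Ccrl2 stayed highest in replicate 4. Whether the levels of both genes are linked was not tested.

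Among 17 genes for ligands of the members, 10 reached a mean of 1 TPM and Ccl26 had 0 counts in all libraries. Ccl6, Ccl3 and Ccl9, ligands of Ccr1, stood at 175 ± 51.1, 115 ± 33.7 and 106 ± 46.2 TPM (SD, n = 4). Of 13 tested in replicate 1, 4 were higher and 0 lower by edgeR, beside 14.5% and 7.58% of all genes tested, and the median log2 fold was -0.04 against 0.00 for all genes. The higher ones were 3 ligands of Ccr2, namely Ccl7, at 274 TPM against 20.4 to 34.2 in the other libraries, Ccl2, at 219 TPM against 20.0 to 47.2, and Ccl12, at 51.1 TPM against 5.85 to 11.9, together with Ccl9. Their log2 folds were 3.11 ± 0.11, 2.58 ± 0.25, 2.37 ± 0.19 and 0.87 ± 0.10 (SE), with edgeR adjusted p-values of 0.00142, 0.00512, 0.00367 and 0.00684. Ccr2 itself was not called in that library. Some ligands were low, and they are named here after their values were seen. Cxcl12, the ligand of Cxcr4 and Ackr3, was at 0.03, 0.02, 0.43 and 0.01 TPM in replicates 1 to 4. The summed level of stromal markers was also highest in replicate 3, with Dcn at 0.69 TPM there and 0 in the others, and a median log2 fold of 4.12 over the 6 stromal markers tested, none of them called. Their part in the Cxcl12 level was not tested. The eotaxin Ccl11 was at 0 to 0.02 TPM and fractalkine, Cx3cl1, at 0.10 to 0.32 TPM.

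Genes that carry or end the signal were widely detected, with 28 of 29 at a mean of 1 TPM. The Gi subunit gene Gnai2 stood at 182 ± 37.0 TPM, and Gng5 and Gnb2, for subunits of the G protein's beta-gamma dimer, at 140 ± 48.8 and 108 ± 22.9 TPM (SD, n = 4). In replicate 1, 4 of 29 were higher and 3 lower by edgeR, near the shares of all genes tested (14.5% and 7.58%), with a median log2 fold of 0.12 against 0.00 for all genes. The calls are given as values of single genes. Pik3cg, the phosphoinositide 3-kinase driven by G proteins, was higher by 1.12 ± 0.13 (SE, adjusted p 0.00778), and Elmo1, which acts with Dock2 to activate Rac, by 0.86 ± 0.09 (adjusted p 0.0064). Grk3, a receptor kinase that starts desensitisation, lay at -0.88 ± 0.21 (edgeR adjusted p 0.0406). The other calls, Arrb2 and Rgs18 as higher and Pik3r5 and Rgs2 as lower, are named after their values were seen, and their log2 folds were 0.42, 0.56, -0.47 and -0.37.

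Single markers of other cells and of macrophages also differed in replicate 1. The median log2 fold of the 12 macrophage markers in that library was -0.14, against 0.00 for all genes tested. The summed level of the monocyte markers was 11.3 TPM in replicate 1 and 25.1, 21.1 and 17.8 TPM in the others. Ms4a4c, which was not called, made up most of that sum, at 7.69, 16.5, 14.8 and 11.7 TPM in replicates 1 to 4. Among these markers Plac8 was called lower in replicate 1, at 0.77 against 3.30 to 5.17 TPM. Treml4 was called higher, at 0.48 against 0.06 to 0.07 TPM. Of the 12 macrophage markers 3 were higher and 1 lower there, where 22.0% of all genes tested were called. The endothelial gene Cdh5, of the stromal markers, was called higher, at 0.72 against 0.07 to 0.17 TPM, with a log2 fold of 2.02. The summed level of the 7 stromal markers was 1.19, 0.37, 1.86 and 0.31 TPM in replicates 1 to 4. In replicate 1, Cdh5 and Pecam1, the latter at 0.33 TPM, made up most of that sum. The median log2 fold of the 6 stromal markers tested was -2.55 in replicate 1, against 0.00 for all genes tested. It was also negative in replicates 2 and 4, at -2.03 and -3.74. Each of these comparisons has replicate 3 among the other libraries, where the median was 4.12 and the summed level was highest. Replicate 1 was also the shallowest library. The part of these markers and of depth in the receptor differences was not tested.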

How the data were processed

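Ribosome-depleted total RNA of the cytosolic fraction of lipid A-treated macrophages was measured in 4 libraries. The deposited gene tables hold expected counts and TPM, and the transcript tables hold the percent of a gene in each transcript, per the file headers. A further deposited table per library, keyed by target, holds estimated counts and TPM. Gene tables were made from reads aligned to the transcriptome (mm10, GENCODE M21) and target tables from reads without that step, according to the text deposited with them. They were made with an aligner, quantifiers and strand setting not given in the sources used here. TPM are relative to all listed features, so they move with abundant RNA such as 7SL. Features that name no gene held 0.0267% to 0.407% of counts and were left out.

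Expected counts were rounded, genes whose mean count reached 10 were kept, and edgeR 4.0.16 set each replicate against the other 3 (TMM, quasi-likelihood test, Benjamini-Hochberg adjustment over 14041 genes, R 4.3.3), which assumes that the lone replicate varies like the others. Standard errors came from the fold and the F statistic. The steps were also run on simulated data with few changed genes. Replicate 1 differs from that setting, so the run does not measure error rates in these libraries. DESeq2 1.42.0, median-ratio size factors, no count filter, the target tables and leaving out each replicate were the alternatives. Promoter windows are RefSeq's. Text names the members, in each wider list the 3 genes with the highest mean TPM and up to 3 called genes with the largest fold, and for each member whose mean count reached 100 the 2 nearest genes by centred log2 CPM. A gene that this rule also names is not reported here. The members and lists were chosen with earlier results of these data known.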

Additional observations from a re-analysis of the deposited data

Results flagged for a closer look

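In a group of 4 libraries a value was set apart when its gap to the nearest library took up most of the group's range (Dixon's test). Chance gives this in about 1 in 20 independent groups, and 7 of 33 groups checked met it. Some genes, the ligands below among them, were checked because of a large fold in replicate 1. Transcript shares of the same gene also depend on each other. The 7 of 33 can therefore not be set against 1 in 20. All 7 had replicate 1 as the library apart. Among the receptors these were Ccr1 at 37.3 TPM, Ccr3 at 4.70 TPM and Cx3cr1 at 0.85 TPM. Among the ligands they were Ccl7 at 274 TPM, Ccl2 at 219 TPM and Ccl12 at 51.1 TPM. The transcript Ccrl2-202 was set apart at 33.8% of its gene, on 23 expected counts.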

How the results depend on the processing

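The calls of Ccr1, Ccr3, Cx3cr1 and Cxcr4 in replicate 1 kept their direction and side of the threshold under the 7 alternatives run, and no member was called in another replicate under any. The count of genes lower in replicate 1 was 1065, and 520 with the target tables. DESeq2 called 8 genes lower in replicate 2, 2 higher and 1 lower in replicate 3, and 5 higher and 12 lower in replicate 4, against 0 for edgeR. Without the count filter 1 gene was lower in replicate 4. Leaving out a replicate gave 0 to 1 genes higher and 0 to 81 lower in replicate 2, and 0 to 1 lower in replicate 4, the 81 without replicate 1. The difference of Ccr1 and Ccrl2 ran from -0.20, without replicate 1, to 1.17, without replicate 4, when a replicate was left out, and the cause was not tested. TPM levels depend on the table and the denominator. The target tables gave 12.1 TPM for Cxcr4 and 1.14 for Ccr2, and leaving out 7SL RNA gave 85.1 and 7.51 TPM. Leading transcripts held 77.7% (Cxcr4-201), 57.8% (Ccr2-202) and 43.3% (Ccrl2-203) in the target tables. Depth limits Cx3cr1 and Ackr3. Libraries could not be paired with each other because they form 1 group. The only pairing was that of genes within a library.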

Other observations

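The genes whose profile over the 4 libraries lay nearest to each member were found among 10008 protein-coding genes by the distance between centred log2 CPM values, as a description of 4 libraries. Nearest to Ccr1 were Itpr3, a calcium release channel, at a distance of 0.04, and Gmds, an enzyme of fucose synthesis, at 0.08. For Ccr3 they were Col18a1, a basement membrane collagen, at 0.19 and Psat1, an enzyme of serine synthesis, at 0.21. Nearest to Cxcr4 were Ifit1bl1 at 0.09 and Vipr1, a neuropeptide receptor gene, at 0.11, and to Ccrl2 Per3, a circadian clock gene, at 0.40 and Gbp5, an interferon-induced GTPase, at 0.41. Ccr2, which varied least, had Rhov at 0.07 and Nectin2 at 0.15.

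Between the 5 members whose mean count reached 100, a limit that leaves out Cx3cr1 and Ackr3, the shortest distances were those of Ccr1 and Ccr3, at 0.57, and of Ccrl2 and Cxcr4, at 0.72. Of all candidates 0.62% lay closer to Ccr3 than Ccr1 did, and 4.23% lay closer to Ccr1 than Ccr3 did. For the other pair, 0.34% lay closer to Ccrl2 than Cxcr4 did and 3.73% closer to Cxcr4 than Ccrl2 did. Ccr1 lay far from Ccrl2, at 3.34, and from Cxcr4, at 2.90.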
